A study of Rattus norvegicus with 8 samples.

Results

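miR-148b and miR-152 are 2 microRNAs (miRNAs) that share a seed, and their products were measured here in rat pancreatic islets on Agilent miRNA arrays. The products were chosen by name: every mature product of the 2 hairpins on the array, without regard to its signal. There were 4 of 677 miRNAs, with 10 of 1644 probes: rno-miR-148b-3p, rno-miR-148b-5p, rno-miR-152 and rno-miR-152* (written below without the rat prefix). In the array's naming the starred product of a hairpin is its less abundant arm. No feature of the array was named miR-148a, the remaining member of the family, so its level is not analysed here. Islets are the hormone-secreting part of the pancreas and consist mainly of beta cells, the source of insulin. Islet RNA of Sprague Dawley rats, which the labels call control, came from animals 10 days old (P10, 4 arrays, sex not given in the labels) and from males 3 months old (adult, 4 arrays). How many animals gave the islets of 1 array is not stated, and any effect of sex cannot be told apart from that of age. The study concerned miRNA changes with beta-cell maturation.

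A miRNA pairs through its seed, bases 2 to 8 from its 5′ end, with sites in messenger RNAs and lowers their translation and stability, so miRNAs with 1 seed are taken to share many targets. The miR-148 family, to which miR-152 belongs, is known for targeting DNA methyltransferases. In cultured beta cells miR-148 is known, with miR-24, miR-26 and miR-182, for keeping up transcription of the insulin genes through repressors of those genes. In the RefSeq gene table (assembly GRCr8) the hairpin of miR-148b lies within the span of Copz1 and that of miR-152 within Copz2, 2 genes for paralogous subunits of the COPI vesicle coat, while no protein-coding gene spans the hairpin of miR-148a.

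The mature sequences show how close the members are, which bears on what a probe can tell apart. Of the 4 products 3 matched a RefSeq mature sequence (GRCr8), with miR-152 taken as the 3p arm and miR-152* as the 5p arm, and miR-148b-5p was not matched. The seed is in capitals.
miR-148b-3p: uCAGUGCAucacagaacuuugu
miR-152-3p: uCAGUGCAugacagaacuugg
miR-148a-3p: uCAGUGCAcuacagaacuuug
miR-152-5p: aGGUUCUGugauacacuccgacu
Of 693 rat mature miRNAs in the table only the first 3 shown carried CAGUGCA at bases 2 to 8. Counted from the 5′ end, miR-152-3p differed from miR-148b-3p by the substitutions C10G and U20G, so that 19 of 21 compared positions were identical. miR-148a-3p differed from miR-148b-3p by U9C and C10U, also with 19 of 21 identical, and from miR-152-3p at 3 positions (U9C, G10U and G20U). The array files do not give probe sequences, so how far a probe for one of the 3 also bound the others was not tested. The minor arm miR-152-5p has another seed, GGUUCUG.

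The major arms were measurable on every array and the minor arms were not. The 2 probes of miR-152* and the 4 probes of miR-148b-5p were not well above background, in the scanner software's call, on any of the 8 arrays. Their mean signals lay between -4.31 and 0.356 units for miR-152* and between -4.54 and 17.8 units for miR-148b-5p. The scanner software's separate call per miRNA listed miR-148b-5p as detected on 1 array, adult replicate 3, where its total gene signal was 9.62. The authors' value table lists miR-148b-5p at 3.51 to 4.05 on its log2 scale and does not list miR-152*. No difference between ages is given for the minor arms.

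Signals are given below after division by each array's 75th percentile, taken over the 278 probes that were well above background on each of the 8 arrays, as log2, so that 0 is the level of that percentile. The percentile itself was 388 to 1690 units on P10 arrays, with replicates 1 and 2 the dimmest at 388 and 440, and 1284 to 1677 on adult arrays. Between 188 and 248 miRNAs were well above background per array. The 8 arrays shared 1 slide and 1 scan, and the P10 arrays filled one of its columns and the adult arrays another, so age cannot be told apart from position by column. The islet label was borne out by miR-375, the best known islet miRNA, which was well above background on all 8 arrays, and the liver marker miR-122 lay at the floor on all 8.

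miR-148b-3p was higher in adult islets, by a modest amount. Its scaled log2 level was -1.95, -1.62, -1.50 and -1.47 on P10 arrays 1 to 4 and -1.09, -0.95, -0.81 and -0.98 on the adult arrays, in the same order. All 4 adult arrays lay above all 4 P10 arrays, and the lowest value was that of P10 replicate 1. The mean was -1.63 ± 0.22 (SD, n = 4) in P10 and -0.96 ± 0.12 (SD, n = 4) in adult. The log2 difference was 0.68 ± 0.14 (SE), a 1.60-fold increase with a 95% interval of 1.29 to 1.99 and a limma adjusted p of 0.00418 over 238 tested miRNAs. So 1 of the 2 tested members passed, as higher in adult. In the same comparison 47.5% of tested miRNAs passed, 27.3% as higher and 20.2% as lower in adult. The ages did not overlap for 45.8%, with adult above for 25.6%, so that a call or a separation of the ages was common on these arrays. The increase was of middling size, since 50 tested miRNAs rose by more and 57.6% had a smaller difference in either direction. The RNA is that of whole islets, so more cells of a type and more of the miRNA per cell cannot be told apart.

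**Figure D1:**
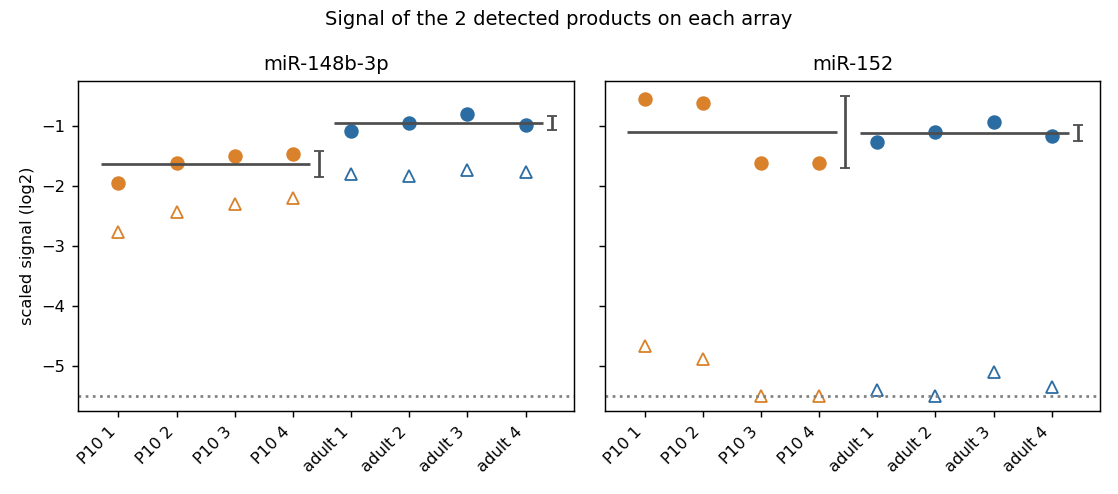
Scaled log2 signal (vertical axis) of miR-148b-3p (left) and miR-152 (right) on each of the 8 arrays, P10 in orange and adult in blue. Filled circles are the brighter probe used for each miRNA, with its group mean (line) and SD (bar), open triangles are its other probe, and the dotted line is the floor at -5.51. All 4 adult arrays lie above the P10 arrays for miR-148b-3p, while P10 replicates 1 and 2 lie above and P10 replicates 3 and 4 below every adult array for miR-152.

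The 2 probes for miR-148b-3p, each printed in 10 features, gave nearly the same answer. On the dimmer probe the scaled log2 level was -2.42 ± 0.25 (SD, n = 4) in P10 and -1.78 ± 0.04 in adult, a log2 difference of 0.64 with a limma adjusted p of 0.00612 when it stood for the miRNA. Before scaling, the brighter probe read 100, 143, 351 and 611 units on the 4 P10 arrays (replicates 1 to 4) and 636, 725, 959 and 653 on the adult arrays, in the same order. The features of that probe varied by 2.70% to 15.8% (coefficient of variation) within an array. The unscaled signal was lowest on the 2 arrays that were dimmest as a whole, and on P10 replicate 4 it came close to that of adult replicate 1.

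miR-152 had nearly the same mean level at both ages, and its P10 arrays lay in pairs above and below the adult arrays. Its scaled log2 level was -0.54, -0.62, -1.62 and -1.61 on the P10 arrays, in the order of their replicate numbers, and -1.26, -1.10, -0.94 and -1.17 on the adult arrays. Every adult value lay between the 2 higher and the 2 lower P10 values. The mean was -1.10 ± 0.60 (SD, n = 4) in P10 and -1.12 ± 0.14 (SD, n = 4) in adult. The log2 difference was -0.02 ± 0.28 (SE) with a limma adjusted p of 0.967, and its 95% interval reached from a 0.630-fold to a 1.55-fold level in adult. A change as large as the mean increase of miR-148b-3p lies just outside that interval, but changes in either direction within it remain possible. This holds for this scaling only, since without scaling the difference of miR-152 was 0.94. The SD of miR-152 among P10 arrays exceeded the median SD of the tested miRNAs there (0.38), whereas among adult arrays it was close to the median (0.11).

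The outcome for miR-152 depended on which P10 arrays entered. Against P10 replicates 3 and 4 alone, the adult arrays were higher by 0.50 ± 0.11 (SE, limma adjusted p = 0.00883). Against P10 replicates 1 and 2 alone, the 2 dimmest arrays, they were lower, with a difference of -0.54 ± 0.11 (SE, limma adjusted p = 0.00437). This split falls where the miR-152 values themselves part, and the fit against replicates 1 and 2 was added after values were seen. The opposite signs therefore follow from the choice of arrays, and neither p-value is support for a change with age. Leaving out any single array gave -0.19 to 0.17 with no call. With array weights estimated from the data, which gave P10 replicate 2 a weight of 2.26 and the other P10 arrays 0.107 to 0.489, the difference was -0.41 (limma adjusted p = 0.0471). miR-148b-3p was higher in adult by 0.53 against replicates 3 and 4 (limma adjusted p = 0.00502). Against replicates 1 and 2 it was higher by 0.83 (limma adjusted p = 0.00142). Its adult arrays all lay above all its P10 arrays, so this sign was fixed in advance for any pair. These 2 p-values are therefore no further support for its increase. The other probe of miR-152 was well above background on 3 of 4 adult arrays and on no P10 array, so it gives no order of the arrays and no size of a difference. Before scaling, the brighter probe of miR-152 read 267, 286, 322 and 552 units over the P10 arrays (1 to 4) and 565, 652, 876 and 572 on the adult arrays, in the same order. On that unscaled reading miR-152 was lowest, not highest, on P10 replicates 1 and 2, but it varied less among P10 arrays than did miR-148b-3p.

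Dividing miR-152 by miR-148b-3p within an array removes the array's scaling factor. The size of this ratio depends on the 2 probes and has no meaning of its own, but its change between arrays shows unequal change of the 2 probe signals. Whether that change is one of the 2 miRNAs or of how their probes respond was not tested. The log2 ratio was 1.41, 1.00, -0.12 and -0.15 on P10 replicates 1 to 4, against -0.17, -0.15, -0.13 and -0.19 on the adult arrays, in the same order. P10 replicates 1 and 2 stood far above the other 6 arrays, and P10 replicates 3 and 4 lay within or just above the adult range. The mean was 0.54 ± 0.79 (SD, n = 4) in P10 and -0.16 ± 0.03 in adult, a log2 difference of -0.70, or 1.62-fold. The exact two-sided permutation p was 0.0571, above the smallest value of 0.0286 that the 70 splits allow. The unequal change of the 2 probe signals with age therefore did not pass. The difference in the ratio was -0.03 against P10 replicates 3 and 4 alone and -1.37 against replicates 1 and 2 alone, and without replicate 1 it was -0.41.

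**Figure D2:**
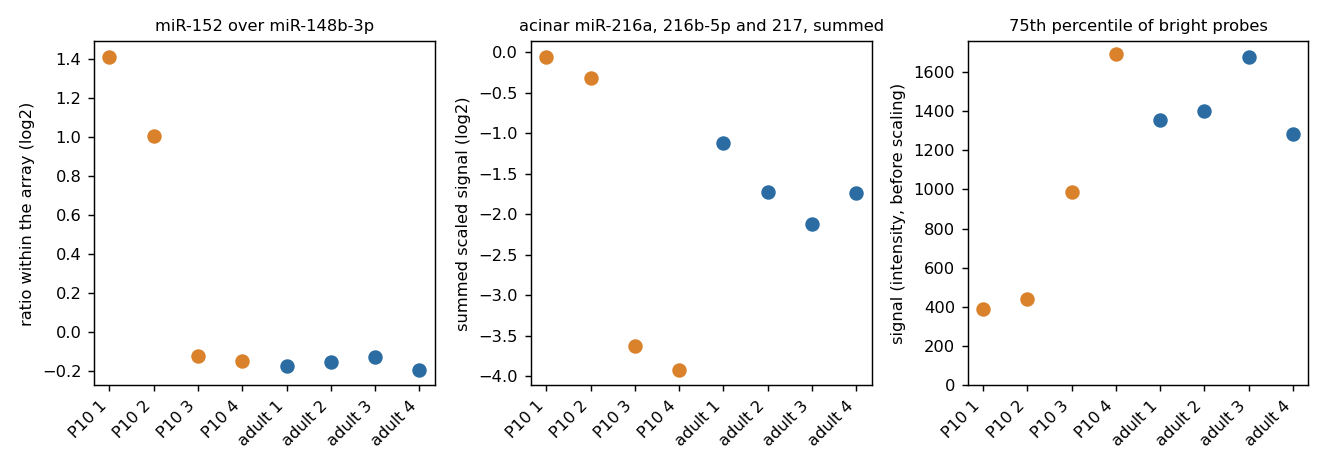
For each of the 8 arrays (P10 in orange, adult in blue), the log2 ratio of miR-152 to miR-148b-3p within the array (left), the summed scaled signal of the acinar markers miR-216a, miR-216b-5p and miR-217 as log2 (middle) and the 75th percentile signal before scaling, in intensity units (right). P10 replicates 1 and 2 have the highest ratios (1.41 and 1.00), the highest acinar sums (-0.06 and -0.32) and the lowest percentile signals (388 and 440). The endothelial sum, not drawn, was lowest on these same arrays.

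Markers of other cell types differed between the same arrays. Acinar cells are the enzyme-secreting cells around the islets, with miR-216a, miR-216b-5p and miR-217 as listed markers. Their summed scaled log2 level was -0.06, -0.32, -3.63 and -3.92 in the P10 arrays (1 to 4) and -2.12 to -1.12 in adult, so that, as for miR-152, P10 replicates 1 and 2 lay above and replicates 3 and 4 below every adult array. None of the 3 passed the test, with differences of 0.61 for miR-216a, -0.47 for miR-216b-5p and 0.51 for miR-217. miR-216a lay at the floor on P10 replicate 4, and miR-216b-5p and miR-217 on P10 replicates 3 and 4. The islet endocrine markers miR-375, miR-7a and miR-7b summed to 3.53, 4.14, 4.64 and 4.65 on P10 arrays 1 to 4 and to between 5.41 and 5.60 in adult. All 3 rose, as did 27.3% of all tested miRNAs, miR-148b-3p among them. In the other lists the summed ranges for P10 and adult were 0.14 to 3.75 and -1.83 to -0.98 for gut epithelium, 1.54 to 2.67 and 2.23 to 2.74 for mesenchyme, -1.42 to 1.57 and -0.12 to 0.28 for leukocytes and 1.23 to 2.24 and 1.55 to 1.73 for endothelium. Of these lists 3 of 3 gut members fell, 1 of 4 mesenchymal members rose and 2 fell. None of the 3 leukocyte or 2 endothelial members passed. The endothelial sum parted the P10 arrays at the same place as the acinar sum, but in the opposite direction. For endothelium P10 replicates 1 and 2 lay below and replicates 3 and 4 above every adult array. Over all tested miRNAs 27.3% rose and 20.2% fell. The erythroid miR-451 and miR-144 rose, with sums of -2.77 to -1.98 in P10, -0.84 to -0.62 on adult replicates 1 to 3 and a value within the P10 range on adult replicate 4. The gut marker miR-215 lay at the floor on all 4 adult arrays and the leukocyte miR-142-5p on P10 replicates 1 to 3. The part of cell composition and of array brightness in the values of either miRNA was not tested.

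The change of miR-148b-3p held under nearly all ways of processing, and its size moved mostly with the bulk of the miRNAs. It was positive in all 29 alternatives and passed in 28 of them, with values from 0.46 to 1.64. In the exception, cyclic loess fitted to all probes, the difference was 0.57 with a limma adjusted p of 0.110. The settings for the filter, the floor, the variance trend and the blocks left the difference unchanged and bear only on its p. All alternatives use these same arrays and are not independent of each other. The largest value, 1.64 without scaling, came with a median difference of 0.94 over the tested miRNAs, against -0.01 here. Relative to that median the increase was 0.69 here, 0.70 without scaling and 0.39 to 0.90 over all alternatives. Leaving out the scaling changes only 1 factor per array, so the likeness of 0.69 and 0.70 was fixed in advance.

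The direction of miR-152 followed the scaling. It passed as higher in adult with the percentile over all probes (0.45, limma adjusted p = 0.0469) and with spike-in scaling (0.80, limma adjusted p = 0.0465), settings in which the median miRNA shifted by as much (0.45 and 0.80). It lay 0.0029 above the median in those settings and without scaling. Only 1 factor per array differs between these settings, which shifts miRNAs above the floor alike. The sameness of this distance was therefore fixed in advance and is no property of miR-152. In the authors' value table miR-152 was 8.87 and 8.77 on P10 replicates 1 and 2, 7.82 on replicate 4 and 8.41 to 8.69 in adult. P10 replicate 3 lay below every adult array there too, and the difference of 0.16 did not pass (limma adjusted p = 0.644). In that table miR-148b-3p was at most 8.64 in P10 and 9.11 to 9.25 in adult, a difference of 0.84 (limma adjusted p = 0.00313).

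**Figure D3:**
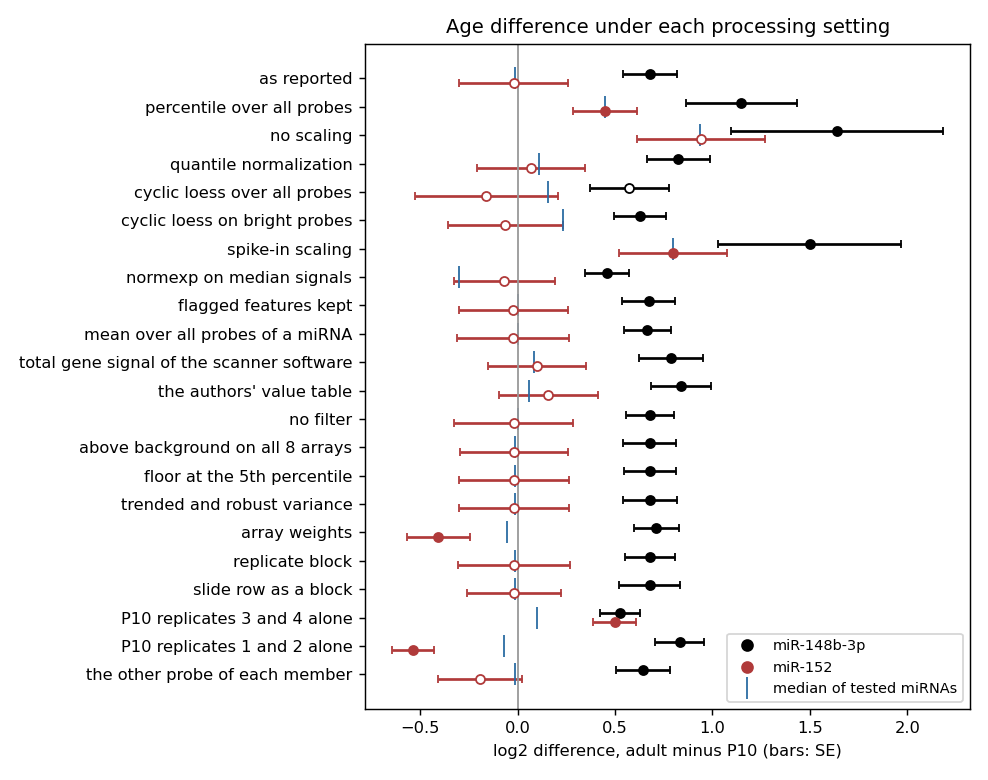
Log2 difference between adult and P10 (horizontal axis, with SE) of miR-148b-3p in black and miR-152 in red, for the values as reported and for 21 other settings (vertical axis). Filled points passed the limma threshold of 0.05 and blue ticks mark the median of the tested miRNAs. miR-148b-3p lies between 0.46 and 1.64 throughout, while miR-152 lies between -0.54 and 0.94.

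The miRNAs closest to each member in profile were found from the root mean square distance between log2 profiles over the 8 arrays. Each profile was centred on its own mean. Neighbours were picked for likeness on these same arrays, so an age difference or a P10 split like the member's follows from the choice. Among the 163 other tested miRNAs above background on all arrays, miR-23a (distance 0.12), miR-30b-5p (0.14), miR-127 (0.15) and miR-107 (0.16) lay nearest to miR-148b-3p, where the median distance was 0.53. Of these miR-23a (0.69), miR-127 (0.69) and miR-30b-5p (0.62) rose in adult and miR-107 stood at 0.47 (limma adjusted p = 0.0582). None of these 3 increases passed after quantile normalization or after either form of cyclic loess, nor did those of miR-23a and miR-127 in the authors' value table. Nearest to miR-152 were miR-30a (0.11), miR-101a (0.14), miR-30a* (0.15), the minor arm of the same hairpin as miR-30a, and miR-125b-5p (0.19), against a median of 0.57. None of these 4 passed, with differences from -0.24 to 0.07, and all had P10 replicates 1 and 2 above replicates 3 and 4. Their signs changed with the scaling, and each passed in some of the 29 alternatives, miR-30a as higher in 4 and lower in 1, miR-101a as higher in 1 and lower in 2, miR-30a* as lower in 2 and miR-125b-5p as lower in 4. miR-125b-5p reached -0.87 after quantile normalization (limma adjusted p = 0.0106) and -0.76 after cyclic loess on bright probes (limma adjusted p = 0.0326). For miR-30a the values were 0.91, 0.84, 0.00 and -0.04 on the 4 P10 arrays (replicates 1 to 4) and 0.43 to 0.53 in adult. The members themselves were 0.60 apart, and 90 miRNAs lay closer to miR-148b-3p than miR-152 did.

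**Figure D4:**
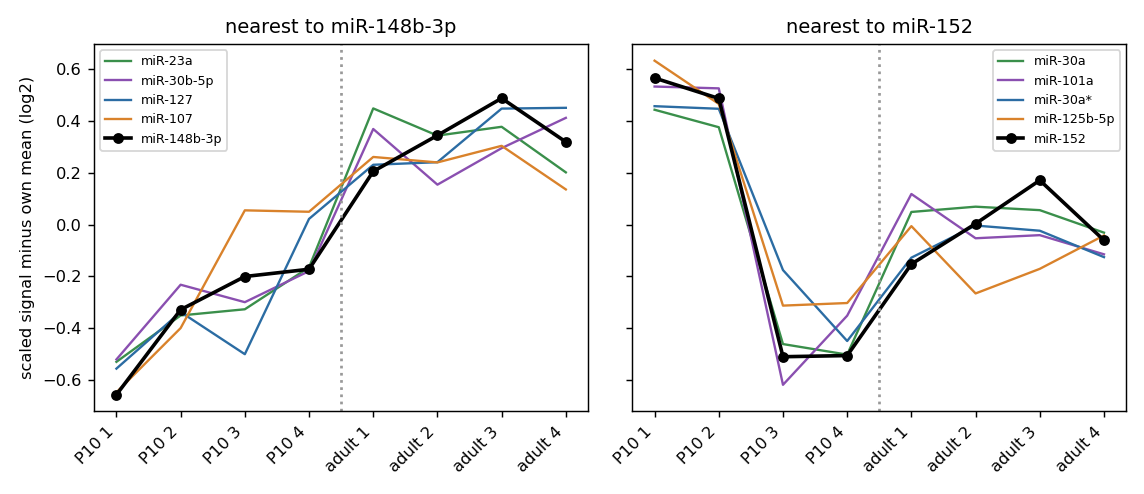
Scaled log2 signal minus each miRNA's own mean (vertical axis) on the 8 arrays for miR-148b-3p (left) and miR-152 (right) in black and the 4 miRNAs nearest to each in colour. Lines only join the arrays of 1 miRNA. Each left profile is higher on every adult array than on any P10 array, and the right profiles are highest on P10 replicates 1 and 2. The neighbours were chosen for this likeness.

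Of the 4 miRNAs listed with miR-148 for insulin transcription, all were tested, 2 rose and none fell, where 27.3% of all tested miRNAs rose and 20.2% fell. miR-24 rose by 1.04 ± 0.15 (SE, n = 4 arrays at each age) with a limma adjusted p of 0.000753, and miR-26b rose by 0.38 (0.0159), while miR-26a (0.20) and miR-182 (0.28) did not pass. The call of miR-26b ended with the replicate number as a block (limma adjusted p = 0.0561), with slide row as a block (0.0787), without adult replicate 1 (0.0525) or 3 (0.0548), and in 4 other settings. miR-182 passed as higher in 8 of 29 alternatives, among them quantile normalization (0.41, limma adjusted p = 0.0279) and the authors' value table (0.52, limma adjusted p = 0.0161). The list's median was 0.33, against -0.01 for all tested miRNAs. miR-24 did not pass after quantile normalization or cyclic loess on all probes. The sign of miR-26b turned after quantile normalization (-0.10) and slightly after cyclic loess on bright probes, and miR-26a passed as lower in adult there (-0.43, limma adjusted p = 0.0307), after cyclic loess on bright probes (-0.37) and in the authors' value table (-0.49). Of the 3 miRNAs listed with the family for DNA methyltransferase targets, miR-29a (2.66), miR-29b (3.59) and miR-29c (2.68) all rose, with larger differences than miR-148b-3p, and lost their calls in 1 of 29 alternatives each, cyclic loess over all probes.

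The 7 letters of the miR-148b seed also open 3 other mature sequences of the table, shifted by 1 base, so that they fill bases 1 to 7 there and the seed reads AGUGCAA. These show how near the seed of miR-148b and miR-152 lies to that of the miR-130 family.
miR-130a-3p: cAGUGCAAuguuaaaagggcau
miR-130b-3p: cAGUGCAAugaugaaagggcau
miR-301b-3p: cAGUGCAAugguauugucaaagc
On the array, where they are named without an arm, 2 of these could be tested and fell, opposite to miR-148b-3p. miR-130a was at 0.31 to 0.94 in P10 and at -0.50 to -0.01 in adult, with a log2 difference of -0.82 (limma adjusted p = 0.00541). miR-130b was at -3.04 to -1.34 in P10 and at -5.21 to -4.71 in adult, with a difference of -2.88 (limma adjusted p = 0.000579). The ages did not overlap for either. Over all tested miRNAs 20.2% fell, and for 45.8% the ages did not overlap, in either direction. miR-130b kept its call in all 29 alternatives, whereas miR-130a lost it in 3 and turned to 0.14 without scaling. miR-301b was well above background on 2 P10 arrays and no adult array and was not tested. miR-301a-3p of the same family was not among the RefSeq sequences searched, so the search could not list it. On the array miR-301a stood at -0.02 and did not pass (limma adjusted p = 0.967).

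**Figure D5:**
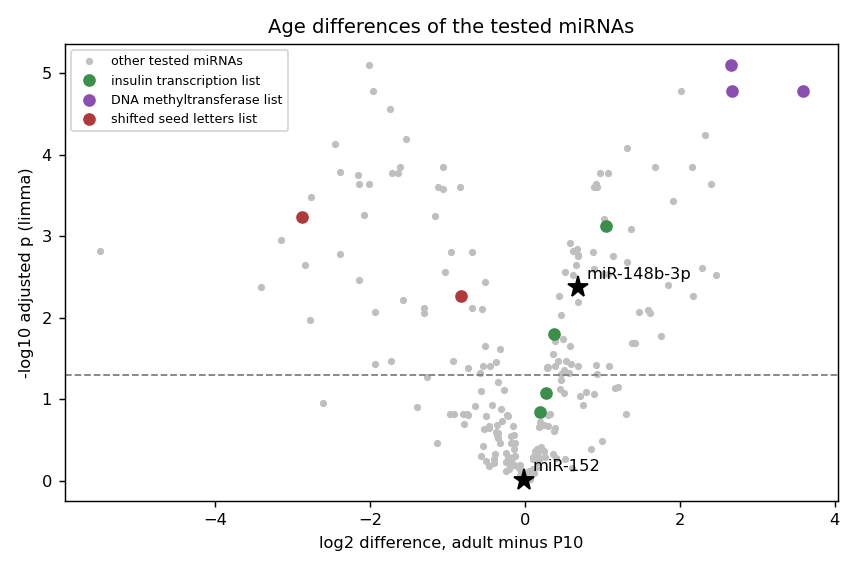
Log2 difference between adult and P10 (horizontal axis) against -log10 of the limma adjusted p (vertical axis) for the 238 tested miRNAs, with the threshold of 0.05 dashed. Stars mark miR-148b-3p (0.68) and miR-152 (-0.02), and colours mark the lists for insulin transcription (green), DNA methyltransferase targets (purple) and the shifted seed letters (red), the last at -0.82 and -2.88.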

How the data were processed

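Total RNA (100 ng, cyanine 3) of 4 P10 and 4 adult islet samples was hybridised in 1 colour, per the labels. Per the file headers, the deposited intensity values come from Agilent Feature Extraction 10.7.3.1, whose processed signal has its background removed and may fall below 0. The authors also deposited a table of log2 values for 311 miRNAs, by steps not stated. Its columns hold almost the same sorted values (gap at most 0.00787) with a median of 6.54 each, as quantile normalization leaves them, and rank the miRNAs as the total gene signal of the array does (Spearman correlation 1). Scale and direction follow from this, and no centring by miRNA was seen.

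On each array 2.34% to 3.65% of features were outliers and were dropped, none was saturated, and the rest were averaged per probe, scaled, raised to 1 floor for all arrays (-5.51, from each array's 1st percentile of probes above background, median taken) and logged. Probes were called by the majority of their used features. Each miRNA was represented by its brightest probe, and limma 3.58.1 in R 4.3.3 tested the 238 that passed this call on 4 or more arrays (lmFit and eBayes, Benjamini-Hochberg, threshold 0.05). The limma step was run on simulated data with the same SD at both ages for each miRNA. That run does not test the unequal spread of these arrays, with a median SD of 0.38 in P10 and 0.11 in adult. The number of arrays limits the precision, and p-values measure the spread between these arrays. Named are the products, the 4 nearest profiles of each and 3 lists, with marker lists given as sums. The 29 alternatives covered scaling, background, probes, filter, floor, weights, blocks and left-out arrays. Members, lists and settings were chosen with earlier results of these data known, and 2 alternatives (the other probe of each member, and P10 replicates 1 and 2 alone) and the array's name for miR-216b were added after values were seen. The planned normexp correction used median signals. The array design uses rn4, so no GRCr8 coordinates are given.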

Additional observations from a re-analysis of the deposited data

How the results depend on the processing

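The count of miRNAs past the threshold was 113 here (65 higher and 48 lower in adult), 31 with cyclic loess over all probes (10 higher and 21 lower), 179 with array weights, 182 with P10 replicates 1 and 2 alone and 84 to 138 when 1 array was left out. Higher against lower calls numbered 90 and 34 where the percentile was taken over all probes, 61 and 17 where signals were left unscaled, 69 and 20 where spike-ins set the scale, and 33 and 46 after normexp. The median difference over the tested miRNAs, -0.01 here, was 0.45, 0.94, 0.80 and -0.30 in those 4 settings, 0.11 after quantile normalization, and 0.16 and 0.24 after cyclic loess on all and on bright probes. miR-148b-3p passed in 28 of 29 alternatives (0.46 to 1.64, limma adjusted p 0.00056 to 0.11), with 0.57 and no call after cyclic loess on all probes, and leaving out 1 array gave 0.57 to 0.73. The fit with the replicate number as a block gave the same differences, 0.68 for miR-148b-3p (limma adjusted p = 0.0131) and -0.02 for miR-152, with 95 calls in all. The deviations of same-numbered arrays from their age means correlated at 0.18, -0.09, 0.48 and -0.23. Of the P10 arrays only replicate 3 correlated best with the adult array of its own number. The labels give no pairing, and so few correlations cannot exclude one. miR-152, not called here, changed sign to 0.45 with the percentile over all probes, 0.94 without scaling, 0.068 with quantile normalization, 0.80 with spike-in scaling, 0.10 in the total gene signal, 0.16 in the authors' value table and 0.50 with P10 replicates 3 and 4 alone. Of these, miR-152 was called as higher with the percentile over all probes, with spike-in scaling and with P10 replicates 3 and 4 alone. It was called as lower at -0.41 with array weights and at -0.54 with P10 replicates 1 and 2 alone. When 1 array was left out it was at -0.19 to 0.17 with no call, positive without P10 replicate 1 (0.17), P10 replicate 2 (0.14) or adult replicate 1 (0.029). The ratio of miR-152 to miR-148b-3p kept its sign in all 19 alternatives that could change it (-1.37 to -0.03). It passed without P10 replicate 4 (-0.93, exact permutation p = 0.0286) and, as a value that carries no support, with the other probe of each member (-0.84, exact permutation p = 0.0286), since that probe of miR-152 was above background on 3 of 8 arrays and set to the floor on 2. Leaving out 1 array gave -0.93 to -0.41, and with P10 replicates 3 and 4 (-0.03) or 1 and 2 (-1.37) alone the exact permutation test has too few splits to pass. Among uncalled neighbours, signs changed for miR-101a with the percentile over all probes (0.42), without scaling (0.92), with quantile normalization (0.096), spike-in scaling (0.77), the total gene signal (0.057), the authors' value table (0.0060) and P10 replicates 3 and 4 alone (0.46), and without P10 replicate 1 (0.13) or 2 (0.12). In the order percentile over all probes, no scaling, spike-in scaling and P10 replicates 3 and 4 alone, miR-125b-5p was at 0.23, 0.72, 0.58 and 0.19 and miR-30a* at 0.33, 0.82, 0.68 and 0.24. miR-30a* was also positive with quantile normalization (0.15), cyclic loess on bright probes (0.37) and in the authors' value table (0.036). miR-30a turned negative with quantile normalization (-0.0088), cyclic loess over all (-0.14) and on bright probes (-0.22), the mean over all probes (-0.025), array weights (-0.26) and P10 replicates 1 and 2 alone (-0.37), and without P10 replicate 3 (-0.070) or 4 (-0.084). miR-26a was at -0.43 with quantile normalization, -0.69 and -0.37 with the 2 cyclic loess forms and -0.49 in the authors' value table, miR-26b at -0.096 with quantile normalization and -0.0023 after the loess on bright probes, miR-182 at -0.038 with normexp and miR-130a at 0.14 without scaling. The causes of these changes were not tested. Low signal limits the dimmer probe of miR-152 and the minor arms, which lay near or below background.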
